A study of Mus musculus with 6 samples.

Results

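The cytosolic and mitochondrial heat shock proteins were examined in mouse liver 1 day after ligation of the common bile duct. The set was defined by gene name as 10 chaperone genes: Hspa1b, Hspa8, Hspa9, Hsp90aa1, Hsp90ab1, Hsph1, Dnajb1, Hspb1, Hspd1 and Hspe1. Every probe set (several short probes that together read 1 transcript) whose annotated symbol, current or older, was one of these was taken. This gave 11 probe sets for 9 of the 10 genes, out of 12422 probe sets other than controls. Hsp90ab1, the constitutive cytosolic HSP90, was not analysed here. Low signals were raised to a floor of 152.7, which 25% of the signals on the 6 arrays do not exceed. The 10 of 11 probe sets above it on at least 3 of the 6 arrays were tested.

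The 6 livers were those of male C57BL/6J mice, wild type and 8 to 10 weeks old, with 1 mouse per array. In 3 of them the common bile duct had been tied and cut 1 day earlier (bile duct ligation, BDL), which stops bile flow. The other 3 underwent a sham laparotomy without ligation. Both groups had abdominal surgery under methoxyflurane anaesthesia, so neither was an unoperated control. The mice are named by the numbers in their labels, 1, 12 and 3 for BDL and 1, 2 and 3 for sham.

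Heat shock proteins are chaperones that keep other proteins folded. In the cytosol, J-domain proteins hand unfolded clients to HSP70, HSP110 proteins reset HSP70 by nucleotide exchange, and HSP90 finishes the folding of signalling proteins. In mitochondria, an HSP70 pulls imported chains through the membrane and the HSP60 and HSP10 chaperonin folds them. Heat, oxidants and other causes of protein unfolding release heat shock factor 1 (HSF1), which binds repeated GAA and TTC units (heat shock elements) in the promoters of the inducible members, whereas the constitutive members are made at high levels in the resting liver.

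In the GRCm38.p6 annotation, Hspa1b lies at chr17:34956429-34959238, Dnajb1 at chr8:83608175-83612653, Hsph1 at chr5:149616843-149636498 and Hspb1 at chr5:135887919-135889563. Hspa8 lies at chr9:40801276-40805202, Hsp90aa1 at chr12:110691036-110696395, Hspd1 at chr1:55077833-55088243 and Hspe1 at chr1:55088148-55091317.

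Promoter sequences are shown for members that varied together over the mice or that are known HSF1 targets. Heat shock elements are the sites that HSF1 binds, and inducible and constitutive members were not compared for them. RefSeq windows (GRCm38.p6) from 250 bases before to 50 bases after an annotated start were matched by symbol for 6 of the 10 members: Hspa1b, Dnajb1, Hsph1, Hspb1, Hspd1 and Hspe1. The 2-unit motifs GAANNTTC and TTCNNGAA, each its own reverse complement and so searched on both strands at once, and the overlapping 3-unit forms GAANNTTCNNGAA and TTCNNGAANNTTC were sought. A 2-unit motif occurred in 15.06% and a 3-unit motif in 0.603% of all 32851 windows of 300 bases. Of the 6 member genes, 5 had a match, Dnajb1 being the one without. The Hspd1 and Hspe1 matches are the same bases, read from either strand, so they are not separate sites. Dnajb1, Hsph1 and Hspd1 had windows at different starts, so this count of genes is not comparable with the shares of single windows. The stretches run 5′ to 3′ on the gene's strand, and capitals mark the motif matches.
Hspa1b, chr17:34959289-34959388, minus strand: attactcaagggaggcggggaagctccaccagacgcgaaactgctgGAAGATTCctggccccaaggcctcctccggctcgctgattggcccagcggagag
Hspb1, chr5:135887769-135887868, plus strand: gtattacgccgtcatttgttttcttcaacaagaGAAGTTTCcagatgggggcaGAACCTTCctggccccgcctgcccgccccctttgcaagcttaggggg
Dnajb1, chr8:83608025-83608124, plus strand: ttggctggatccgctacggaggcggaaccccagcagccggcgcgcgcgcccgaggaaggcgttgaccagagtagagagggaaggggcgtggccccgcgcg
Hsph1, chr5:149636348-149636377, minus strand: tagaatctTTCTCGAAggctcgagaagaag
Hspe1, chr1:55088051-55088080, plus strand: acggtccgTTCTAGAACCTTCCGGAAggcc

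The Hspa1b, Hspb1 and Dnajb1 stretches are the bases -150 to -51 counted from the annotated start. The Hspa1b match began at base -104, and the Hspb1 matches began at bases -117 and -97. Hsph1 carried a 2-unit match at base -33 and a 3-unit match from base 37 to base 49 after its upstream start. Hspd1 and Hspe1, the genes of the mitochondrial chaperonin, lie head to head on chromosome 1, with 216 bases from 1 of the 2 annotated Hspd1 starts to the Hspe1 start. The other Hspd1 start lies beyond the Hspe1 start, so the gene models overlap. The run of overlapping 3-unit matches in the last stretch above lies between the starts that are 216 bases apart. A match describes letters only, and the absence of one in the Dnajb1 windows says only that these letters are not there.

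None of the heat shock protein genes passed the test for a difference between BDL and sham livers. Over the 9 genes, each taken at its probe set with the highest mean signal, 4 had a higher and 5 a lower mean log2 signal in BDL, and the median difference was -0.0058. Over all 6897 genes with a tested probe set the median was -0.0068 and 49.2% were higher in BDL. The most negative and the most positive difference were those of Hspa1b, the inducible HSP70, at -0.40 and Hspa8, the constitutive HSP70, at 0.53 on the log2 scale. What set the members apart from each other was the spread between mice, which was wide for Hspa1b, Dnajb1 and Hsph1 in both groups and narrow for Hspe1 and Hspa9.

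With limma and Benjamini-Hochberg adjustment over all 9542 tested probe sets, 0 of the 10 member probe sets reached the threshold of 0.05 for the adjusted p, which ran for them from 0.832 to 0.998. Over the whole array 0 probe sets (0%) passed, with a lowest adjusted p of 0.667. At an unadjusted p under 0.05 there were 0 members, against 5.78% of all tested probe sets. The BDL and sham signals overlapped for all 10 members. Of all tested probe sets, the groups were apart for 10.6%, with BDL above sham for 6.32% and below for 4.32%.

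**Figure D1:**
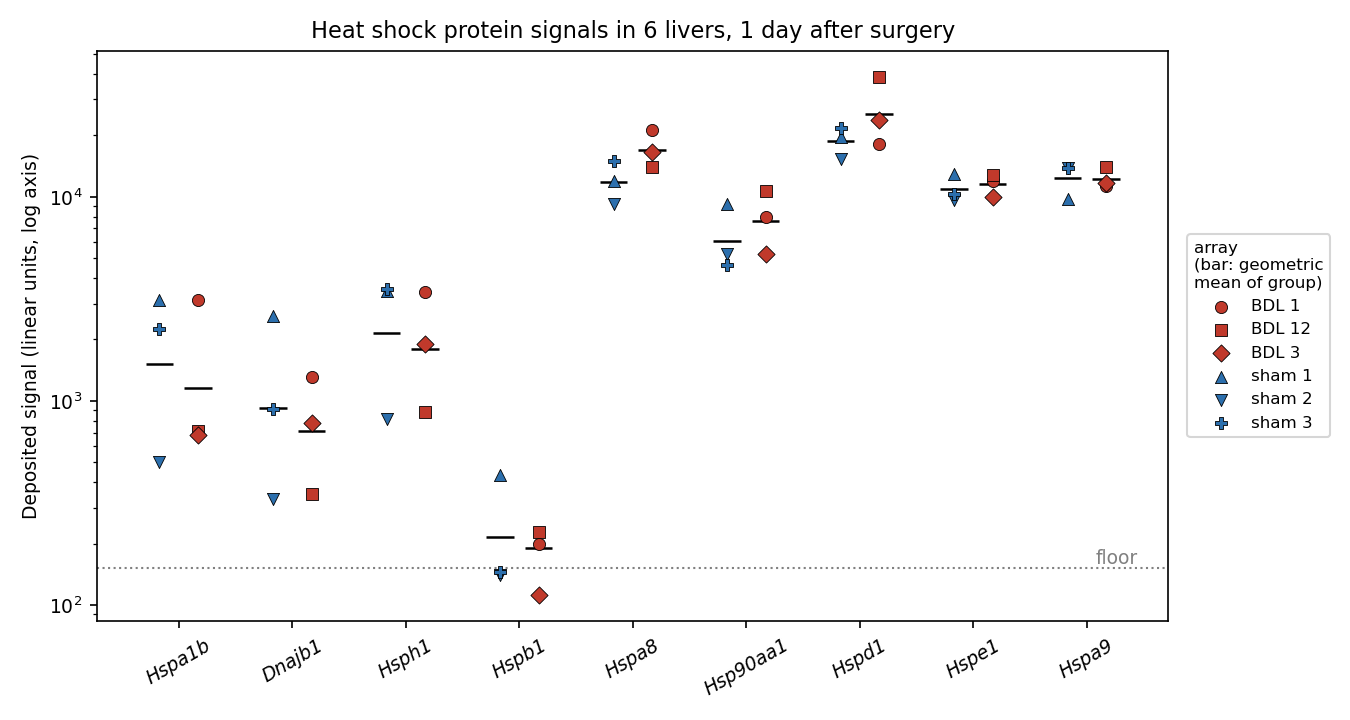
Deposited signal (log axis) of 9 heat shock protein genes in 3 BDL (red) and 3 sham (blue) livers, 1 point per mouse, with black bars at the group's geometric mean (after the floor, dotted line) and the order of genes chosen by role. The groups overlap for every gene, and heights of different genes come from different probes and are not comparable.

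**Figure D2:**
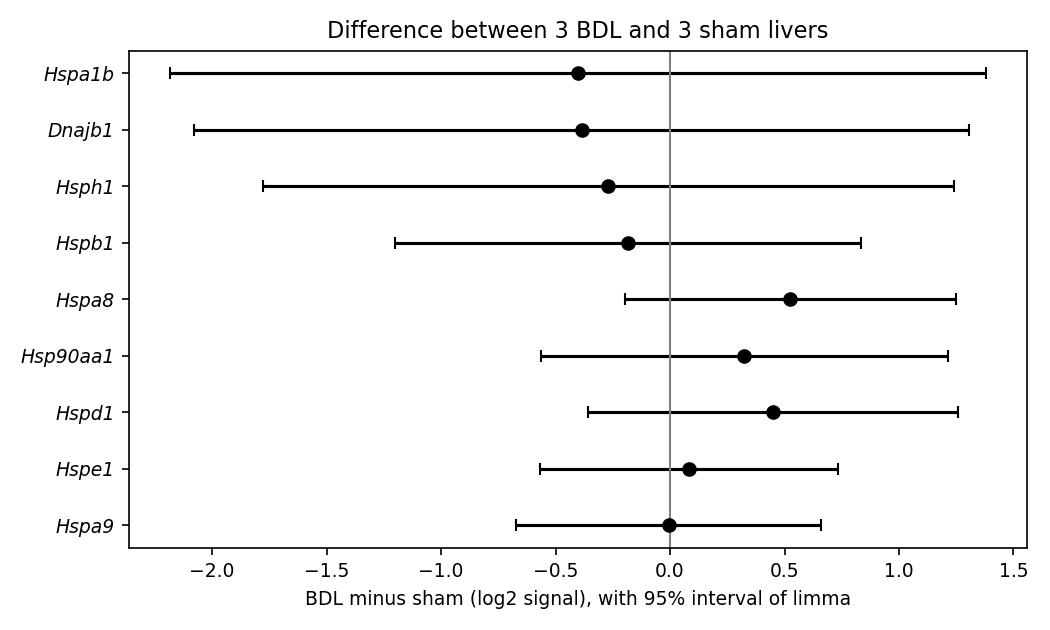
BDL minus sham difference in log2 signal for the 9 genes, with limma's 95% interval (3 BDL and 3 sham mice). All 9 intervals include 0, and those of Hspa1b, Dnajb1 and Hsph1 are the widest.

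The stress-inducible cytosolic members are described first. Hspa1b encodes the HSP70 that is scarce in resting cells and made in quantity on heat shock. Its signal was 3134, 714 and 684.5 in BDL mice 1, 12 and 3, and 3130, 501.8 and 2246 in sham mice 1, 2 and 3. BDL mouse 1 and sham mouse 1 had almost the same high value, and the lowest value was that of sham mouse 2, so mice of the same operation differed more than the group means did. The geometric means were 1153 in BDL and 1522 in sham, a log2 difference of -0.40 (SE 0.78, 3 and 3 mice; limma adjusted p = 0.941). The 95% interval reached from 0.22-fold to 2.60-fold, so a difference of 2-fold in either direction lay within it.

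Hspa1b has a near-identical neighbour, Hspa1a, and hybridisation to one can report the other. Over the 300-base windows, 296 bases were identical, and the stretch printed above was the same in both genes at all 100 positions. The probe set annotated to Hspa1a, given here because it is this copy, read 322.7, 634.1 and 461.7 in the BDL mice and 106.4, 75.5 and 630.8 in the sham mice. It therefore ordered the mice differently from the Hspa1b probe set (Pearson r of log2 signals -0.08 over 6 arrays). Which of the copies each probe set reports was not tested.

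Dnajb1 encodes the J-domain protein (HSP40) that loads clients onto HSP70. Its signal was 1310, 349.7 and 778.6 in BDL mice 1, 12 and 3, and 2620, 331.1 and 917.7 in sham mice 1, 2 and 3. The highest and the lowest values were both in sham mice, 7.91-fold apart. The mean log2 difference was -0.39 (SE 0.74; limma adjusted p = 0.940).

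Hsph1 encodes HSP105, the HSP110-family partner of HSP70. Its signal was 3398, 883.8 and 1906 in BDL mice 1, 12 and 3, and 3451, 818.8 and 3546 in sham mice 1, 2 and 3. As for Dnajb1, BDL mouse 12 and sham mouse 2 were the lowest, at about the same level. The mean log2 difference was -0.27 (SE 0.66; limma adjusted p = 0.954).

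The negative means of these members turned with single arrays. Without sham mouse 1 the differences were 0.12 for Hspa1b, 0.36 for Dnajb1 and 0.070 for Hsph1. Without BDL mouse 12 they were 0.12 for Dnajb1 and 0.24 for Hsph1, and without sham mouse 3 the Hsph1 difference was 0.090. Sham mouse 1 stood apart at low signals over the whole array, with a 10th percentile of 135 against 33.6 to 62.2 on the other arrays. With arrays weighted by quality they were 0.34, 0.53 and 0.54.

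Hspb1, the small heat shock protein HSP25, which holds unfolded proteins without using ATP, was close to the floor. Its signal was 198.2, 229.2 and 111.9 in BDL mice 1, 12 and 3, and 435.7, 140.2 and 145.9 in sham mice 1, 2 and 3. Of the 6 arrays, 3 were above the floor, and raising the others to it shrinks differences at this level. The difference was -0.18 (SE 0.45; limma adjusted p = 0.954), and 0.32 without sham mouse 1, the only sham mouse above the floor and the array with raised low signals. With array weights it was 0.010.

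The constitutive cytosolic members were at high signals in all mice. Hspa8 encodes HSC70, which serves in folding, in uncoating of clathrin vesicles and in chaperone-mediated autophagy. Its signal was 21183, 14005 and 16604 in BDL mice 1, 12 and 3, and 11990, 9220 and 14932 in sham mice 1, 2 and 3. Only BDL mouse 12 and sham mouse 3 overlapped, by a small margin. The geometric mean was 1.44-fold higher in BDL, with a 95% interval from 0.87-fold to 2.38-fold, a log2 difference of 0.53 (SE 0.32; limma adjusted p = 0.832). It stayed positive under all 16 alternatives, from 0.35 without sham mouse 2 to 0.72 with arrays weighted by quality. In whole liver, a change in the number of cells of a type and a change in RNA per cell cannot be told apart.

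Hsp90aa1 encodes the inducible cytosolic HSP90. Its signal was 7953, 10672 and 5236.5 in BDL mice 1, 12 and 3, and 9247, 5268 and 4651 in sham mice 1, 2 and 3. BDL mouse 12 was the highest and sham mouse 3 the lowest, with the others interleaved. The log2 difference was 0.32 (SE 0.39; limma adjusted p = 0.901), and ran from 0.082 without BDL mouse 12 and 0.13 without sham mouse 3 to 0.60 without BDL mouse 3 and 0.62 without sham mouse 1. The other Hsp90aa1 probe set was above the floor on 1 of 6 arrays, at 344.2 in sham mouse 1, and was not tested.

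Among the mitochondrial members, Hspd1 encodes HSP60 and Hspe1 its HSP10 lid. The Hspd1 signal was 18040, 38765 and 23908 in BDL mice 1, 12 and 3, and 19682, 15390 and 21668 in sham mice 1, 2 and 3. BDL mouse 12 was 1 of 2 BDL mice above all sham mice, and BDL mouse 1 fell among the sham mice. The log2 difference was 0.45 (SE 0.36; limma adjusted p = 0.852), and ran from 0.15 without BDL mouse 12 to 0.70 without BDL mouse 1. A second Hspd1 probe set, of the kind for which the manufacturer relaxed its design rules, went the other way. It read 284.5, 336.4 and 605.2 in the BDL mice and 953, 585.8 and 470.2 in the sham mice, a difference of -0.73 (SE 0.40; limma adjusted p = 0.832). The mean of both probe sets gave -0.14, so the direction for Hspd1 depended on the probe set.

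Hspe1 had a signal of 12001, 12840 and 9968 in BDL mice 1, 12 and 3, and 12935, 9687 and 10309 in sham mice 1, 2 and 3. All 6 mice lay within 1.34-fold of each other. The log2 difference was 0.083 (SE 0.29; limma adjusted p = 0.965). Although Hspd1 and Hspe1 share the stretch between their starts, their leading probe sets had a Pearson r of only 0.44 over the 6 arrays (Spearman rho 0.31).

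Hspa9 (chr18:34937414-34954351, GRCm38.p6) encodes mortalin, the mitochondrial HSP70 of protein import. Its signal was 11325, 13978 and 11709 in BDL mice 1, 12 and 3, and 9807, 13814 and 13848 in sham mice 1, 2 and 3. The geometric means, 12284 in BDL and 12334 in sham, were almost equal, with a log2 difference of -0.0058 (SE 0.29; limma adjusted p = 0.998). The 95% interval, 0.63-fold to 1.58-fold, bounds how large a difference these arrays leave possible. The sign of a difference this close to 0 turned when BDL mouse 1, BDL mouse 3, sham mouse 2 or sham mouse 3 was left out, to at most 0.078.

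The members differed most in how much mice of the same group varied. The SD of log2 signal between arrays of a group was 1.33 for Hspa1b, 1.25 for Dnajb1 and 1.10 for Hsph1, above 99.1%, 98.9% and 97.3% of all tested probe sets. It was 0.65 for Hspb1, 0.52 for Hsp90aa1, 0.43 for Hspd1 and 0.33 for Hspa8, against a median of 0.44 over all tested probe sets. For Hspa9 (0.23) and Hspe1 (0.20) it exceeded that of 12.5% and 8.68% of probe sets. On the linear scale, the 3 sham mice spanned 6.24-fold for Hspa1b, 7.91-fold for Dnajb1 and 4.33-fold for Hsph1. The BDL mice spanned 4.58-fold, 3.75-fold and 3.84-fold. The wide spread was thus present after either operation, and it set the large standard errors of these genes.

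**Figure D3:**
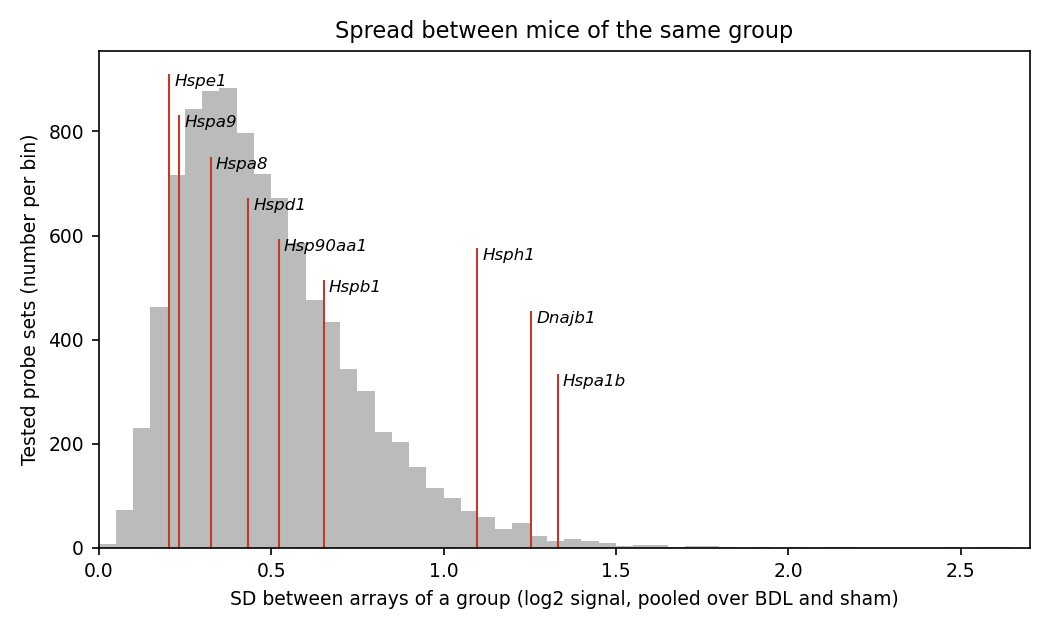
Number of tested probe sets (grey) by SD of log2 signal between arrays of the same group, pooled over BDL and sham, with red lines at the 9 heat shock protein genes (line height has no meaning). Hspa1b, Dnajb1 and Hsph1, at 1.33, 1.25 and 1.10, sit in the upper tail, and Hspe1 and Hspa9 at the lower end.

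Hspa1b, Dnajb1 and Hsph1 also varied together. Over the 6 arrays Pearson's r of log2 signals was 0.91 for Hspa1b and Hsph1, 0.87 for Hspa1b and Dnajb1, and 0.90 for Hsph1 and Dnajb1 (Spearman rho 0.71, 0.89 and 0.83). After each group's mean was taken off, r was 0.91, 0.87 and 0.90. For scale, an r above 0.9 was found for 33 of 6888 other genes with Hspa1b (0.479%), for 100 with Hsph1 (1.45%) and for 98 with Dnajb1 (1.42%). Hspa1b and Dnajb1, at 0.87, were under that cut, and 179 of the 6888 (2.6%) had an r above 0.8 with Hspa1b. Leaving out 1 array at a time gave 0.87 to 0.98, 0.82 to 0.94 and 0.85 to 0.97. Without the 2 arrays farthest from the median, r was 0.85, 0.83 and 0.56, so the last relation rested in part on the low values of BDL mouse 12 and sham mouse 2. These values describe 6 mice measured on shared arrays, for genes picked with the values known, and carry no test.

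**Figure D4:**
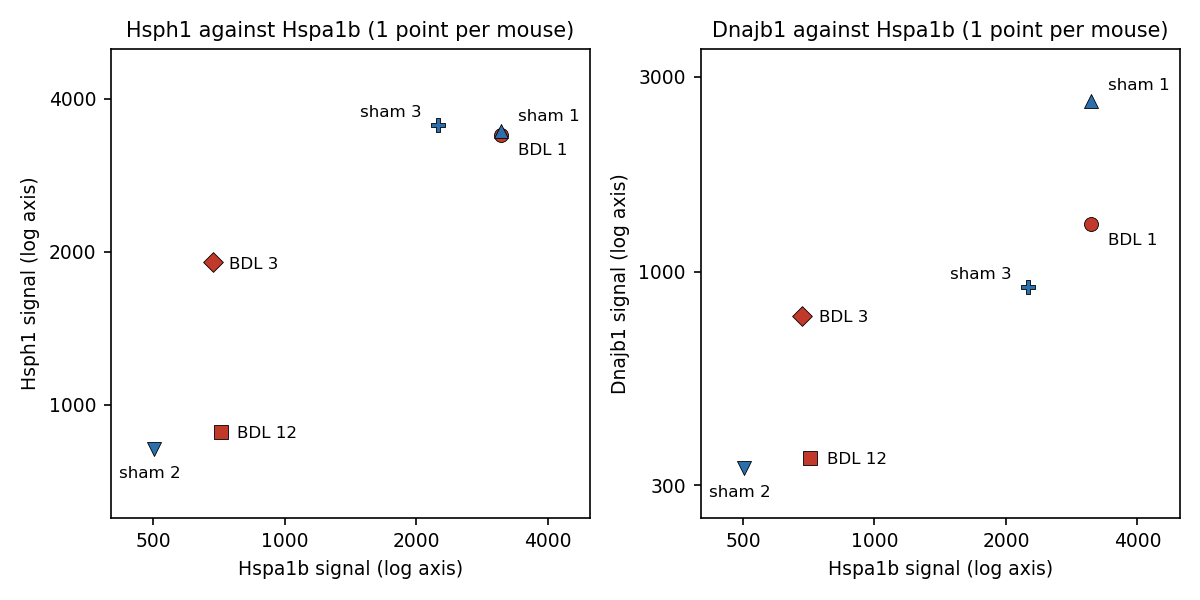
Signals of Hsph1 (left) and Dnajb1 (right) against Hspa1b on log axes, 1 point per mouse, BDL in red and sham in blue. Sham mouse 2 and BDL mouse 12 lie at the lower left and sham mouse 1 and BDL mouse 1 at the right, so mice of both operations occur at both ends.

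**Figure D5:**
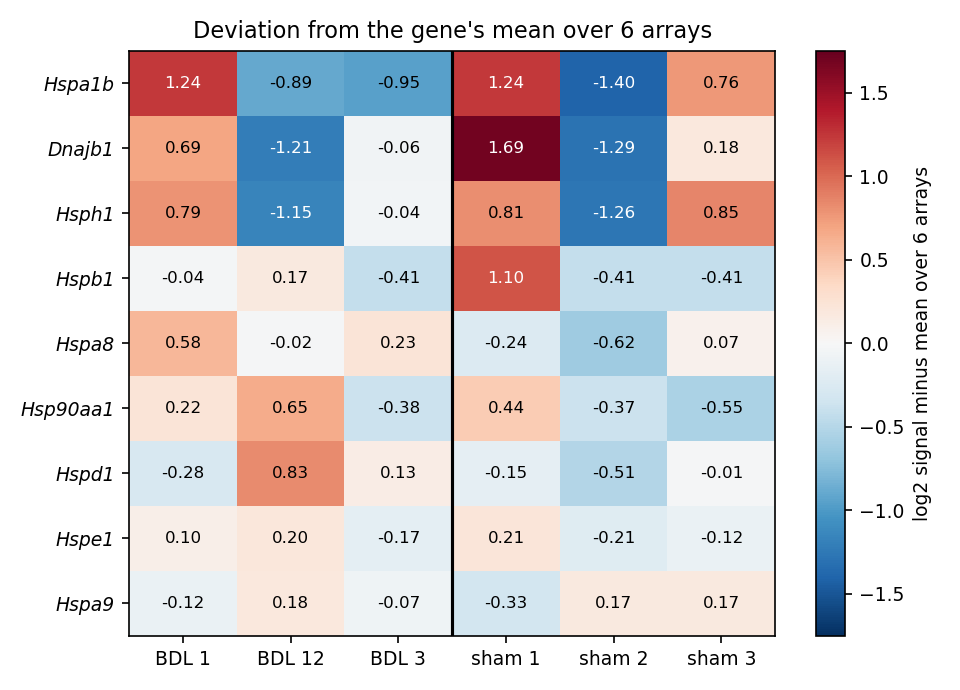
Deviation of each mouse from the gene's mean over the 6 arrays (log2 signal, written in the cells), BDL to the left and sham to the right of the black line. Hspa1b, Dnajb1 and Hsph1 share positive values in BDL mouse 1 and sham mice 1 and 3 and negative values in BDL mice 12 and 3 and sham mouse 2, and none of the other genes has that set of signs. In BDL mouse 3 the sign is shared but not the size, at -0.95 for Hspa1b, -0.06 for Dnajb1 and -0.04 for Hsph1.

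Over all 6 arrays, r of the remaining members with Hspa1b was 0.51 for Hspb1, 0.46 for Hspa8, 0.23 for Hsp90aa1, 0.50 for Hspe1, -0.25 for Hspd1 and -0.60 for Hspa9. After group means were taken off, Hspa8 had an r of 0.84 with Hspa1b, 0.69 with Dnajb1 and 0.93 with Hsph1, the last above the values among Hspa1b, Dnajb1 and Hsph1 themselves. Before group means were taken off, Hspa9 ran opposite to Dnajb1 (r = -0.87), and Hsp90aa1 ran with Hspe1 (0.95). In BDL mouse 12, where Dnajb1 and Hsph1 deviated from their means over the arrays by -1.21 and -1.15, Hspd1 and Hsp90aa1 had their highest values, with deviations of 0.83 and 0.65.

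The genes most like Hspa1b over the 6 arrays, among 6888 other genes, were Mrpl37, a mitochondrial ribosomal protein (r = 0.99), Commd7 (0.99), Cmah (0.98), Lyst (0.98) and Cyp2c38, a cytochrome P450 (0.98). Those most like Hspa8 were Lats2, a Hippo pathway kinase (0.99), Sec23ip (0.98), Sf1 (0.98), Cldn3, a claudin of tight junctions (0.98), and Stk40 (0.97). They were picked as the highest of 6888 values of r over 6 arrays. None of these 10 genes passed the test between groups (limma adjusted p from 0.832 to 0.976).

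The rest of the chaperone system was read from lists of genes that work with the members, each gene at its probe set with the highest mean signal. Of 5 tested HSP70 and HSP110 relatives, at an unadjusted p under 0.05 there were 0 higher and 1 lower (background 3.4% higher and 2.39% lower), and 0 passed the adjusted threshold of limma. The lower one was Hspa1l, an HSP70 best known from testis, at 374.7, 202.5 and 366 in BDL mice 1, 12 and 3 and 1559.5, 611.8 and 430.7 in sham mice 1, 2 and 3. All its BDL values were below all sham values, with a log2 difference of -1.30 (SE 0.50; limma adjusted p = 0.832), and its highest value was in sham mouse 1, the array with raised low signals.

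Of 17 tested J-domain genes 10 were higher in mean (48.8% of all tested probe sets were) and 0 were called in either direction at an unadjusted p under 0.05, with a median of 0.056. Dnajc7, a co-chaperone of HSP70 and HSP90, had the smallest p, at a difference of 0.48 (SE 0.31), followed by Dnajb8 at -0.25 (SE 0.36) and Dnajc5 at 0.23 (SE 0.38). A second probe set of Dnajc8, picked after its values were seen, read 3688, 1858 and 2534.5 in BDL mice 1, 12 and 3 and 1117, 1550 and 755.6 in sham mice 1, 2 and 3. Its groups were apart, with a difference of 1.24 (SE 0.38), whereas the brighter Dnajc8 probe set differed by 0.060 (SE 0.28) with overlapping groups. The second Dnajc8 probe set is of the same relaxed design kind as the second Hspd1 probe set. Of 4 other small heat shock proteins 0 were called, with a median of -0.079. Hspb2 differed by 0.45 (SE 0.29) and Cryaa, a crystallin, by -0.41 (SE 0.39), both with overlapping groups. Hsbp1, the one tested regulator of heat shock factors, differed by 0.23 (SE 0.32) with overlapping groups. Hspb8, the partner of the co-chaperone BAG3, read 10619, 12894 and 13431 in the BDL mice and 10946, 26071 and 20644 in the sham mice. Its sham mice 2 and 3 were above all BDL mice and sham mouse 1 was among them, with a difference of -0.56 (SE 0.37; limma adjusted p = 0.834).

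Of 20 tested co-chaperones of HSP90 and HSP70, 8 were higher in mean (48.8% of all tested probe sets were), with a median of -0.025. By the unadjusted test 0 were called in either direction, against 3.4% higher and 2.39% lower of all tested probe sets. Sugt1, a co-chaperone of HSP90, was the one whose groups were apart, with BDL above (6.32% of all tested probe sets). It read 3686, 2504 and 2982.5 in BDL mice 1, 12 and 3 and 1559, 1952 and 2320 in sham mice 1, 2 and 3. Its log2 difference was 0.65 (SE 0.31, limma adjusted p = 0.832). A second Sugt1 probe set differed by 0.53 (SE 0.32) with overlapping groups. Ppp5c, a phosphatase bound to HSP90, differed by 0.55 (SE 0.36) and Pih1d1 by -0.54 (SE 0.38), both with overlapping groups. Chordc1 and Stip1, both co-chaperones of HSP90 and picked here after their values were seen, had an r of 0.88 and 0.87 with Hspa1b. Chordc1 read 3159, 1075 and 2040 in BDL mice 1, 12 and 3 and 3031, 747 and 2242 in sham mice 1, 2 and 3. Its second probe set read 3357, 1118 and 1982.5 and then 2225, 1193 and 1725, so BDL mouse 12 and sham mouse 2 were lowest on both. An r above 0.8 with Hspa1b was found for 2 of 20 co-chaperones and 4 of 87 genes over all the chaperone lists (4.6%), against 2.6% of the 6888 other genes.

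Of 12 tested partners of the mitochondrial chaperones and quality control proteases, 10 were higher in mean and the median was 0.15. Over all tested probe sets 48.8% were higher in mean. By the unadjusted test 1 of the 12 was higher and 0 were lower, against 3.4% and 2.39% of all tested probe sets. Pam16, a subunit of the import motor in which Hspa9 works, read 1533, 1089 and 1069 in BDL mice 1, 12 and 3 and 420.1, 241.6 and 1037 in sham mice 1, 2 and 3. All BDL values were above all sham values, the nearest by a small margin, with a difference of 1.36 (SE 0.51; limma adjusted p = 0.832).

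TRiC is the cytosolic chaperonin that folds actin and tubulin. Of 13 tested subunits of TRiC and of prefoldin, 8 were higher in mean, with a median of 0.34. The groups were apart for 5 of the 13, 3 with BDL above and 2 with BDL below, where 6.32% and 4.32% of all tested probe sets were. At an unadjusted p under 0.05 there were 1 higher and 1 lower, and 0 passed the adjusted threshold of limma. The higher one was the prefoldin subunit Vbp1, at 2363, 2049 and 2498 in the BDL mice and 745.8, 711.6 and 1844 in the sham mice (difference 1.21, SE 0.41; limma adjusted p = 0.832). The lower one was the prefoldin subunit Pfdn5, at 496.4, 468 and 457.2 in the BDL mice and 1229, 715.9 and 731.4 in the sham mice (difference -0.87, SE 0.32; limma adjusted p = 0.832). The mean differences of Vbp1 and Pfdn5 thus had opposite signs, and neither passed the adjusted threshold.

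Chaperones of the endoplasmic reticulum, which answer to a different stress pathway, are given for contrast. Of 15 tested, 12 were higher in mean (48.8% of all tested probe sets were) and 0 were called at an unadjusted p under 0.05, with a median of 0.33. The groups were apart for 2 of the 15, Hspa5 and P4hb, both with BDL above (6.32% of all tested probe sets). P4hb, named here after its values were seen, was read on a probe set of the relaxed design kind (difference 0.39, SE 0.29). Its other, dimmer probe set went the other way, with all BDL values below all sham values (difference -0.85, SE 0.37). The smallest p-values were those of Serpinh1, the collagen chaperone, with a difference of 0.72 (SE 0.38), and Dnajb9, with 0.65 (SE 0.38), both with overlapping groups. Hspa5, the HSP70 of this compartment, read 33511, 76844 and 34572 in BDL mice 1, 12 and 3 and 28945, 29103 and 31391 in sham mice 1, 2 and 3 (difference 0.58, SE 0.37; limma adjusted p = 0.832). Its highest value was thus in BDL mouse 12, the BDL mouse with the lowest Dnajb1 and Hsph1, and its r with Hspa1b was -0.36. Hsp90b1, the HSP90 of this compartment and picked after its values were seen, was also highest in BDL mouse 12, at 61179 against 21423 to 35567 in the other mice.

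Markers of other liver cells were read beside these values and called where the unadjusted p was under 0.05, as 3.4% (higher) and 2.39% (lower) of all tested probe sets were. For the counts higher in mean, the share of all tested probe sets was 48.8%. Of 13 hepatocyte markers tested, 7 were higher in mean, 0 were called higher and 2 lower (Ttr and Cebpa), and their summed signal was 720542 to 973400 in BDL and 578714 to 927969 in sham. Of 12 macrophage markers, 10 were higher in mean and 3 were called higher (Ctss, Tyrobp and Cd14), and Marco was too low to test. Their summed signal was 18452 to 42428 in BDL and 8968 to 16880 in sham. Without Cd14, the brightest of them, the sums were 12737 to 18063 and 7792 to 13421, which overlapped. C1qb, picked after its values were seen, was lower in mean at its brighter probe set (-0.29, SE 0.29). At its other probe set it was higher (1.77, SE 0.54), with all BDL values above all sham values. Of 12 neutrophil markers, 4 were higher in mean, with a median of -0.11, and S100a9 was called higher. Their sums, 62918 to 110334 in BDL and 49699 to 70323 in sham, were mostly Lcn2, and without it were 6621 to 9328 and 5170 to 12356. Of 12 endothelial markers, 10 were higher in mean and 2 were called higher (Cdh5 and Fcgr2b), with overlapping sums.

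Of 7 cholangiocyte markers on the array, 4 were too low to test, Krt7 and Epcam among them. Of the other 3, Anxa3 read 381, 404.5 and 389.4 in the BDL mice and 136.7, 72.9 and 63 in the sham mice, a difference of 1.36 (SE 0.26; limma adjusted p = 0.667). Its sham values were all under the floor and were raised to the same value, so this difference and its SE depend on the floor. Of these 3 markers, 2 were at the floor on at least 3 arrays, Anxa3 among them. Of 10 stellate cell markers, 2 were called higher (Acta2 and Sparc), and of 6 lymphocyte markers 1 was called lower (Ms4a1), both lists with overlapping sums. Of 7 muscle and 5 erythroid markers 0 were called.

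As measures of RNA quality, the 3′ over 5′ signal was read for beta-actin and Gapdh. For beta-actin it was 1.21, 1.41 and 1.33 in BDL mice 1, 12 and 3 and 1.53, 1.54 and 1.52 in sham mice 1, 2 and 3. For Gapdh it was 0.690, 0.736 and 0.741 in the BDL mice and 0.652, 0.692 and 0.813 in the sham mice. The groups were apart for beta-actin and overlapped for Gapdh. The part of cell makeup and RNA quality in the heat shock protein values was not tested.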

How the data were processed

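The authors measured liver RNA on Affymetrix U74Av2 arrays with 20 µg cRNA and used MicroArray Suite and GeneChip Expression Analysis software, per the series' design text. Each deposited value is the linear intensity of a probe set on 1 array. The 2% trimmed mean was 1501 on every array, so the values were kept as scaled; no scaling target or background step is named here. Medians ran from 431 to 627. The number of arrays limits the precision.

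Values below 152.7 were set to that floor and log2 was taken. Of 12488 probe sets, 66 controls were left out, 2880 were too low to test and 9542 were tested with limma 3.58.1 in R 4.3.3 (lmFit and eBayes, no covariates), with Benjamini-Hochberg adjustment. SE is limma's moderated standard error. The fit was tested on simulated data. With 3 against 3 arrays an exact permutation p cannot go below 0.1.

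Names came from the platform annotation, with symbols brought up to RefSeq (GRCm38.p6) through Entrez identifiers: 10833 had 1 symbol, 396 several and 1193 none, and the last 2 kinds were not named. Named genes are the members, the genes of each list at an unadjusted p under 0.05 or, where a list has none, up to 3 with the smallest p, and the 5 genes most correlated with Hspa1b and Hspa8; others are said to be picked. The members and lists were chosen with earlier results of these data known. Alternatives were quantile normalization, floors at the 10th and 40th percentiles, 50 added in place of a floor, no filter, a stricter filter, a variance trend, array weights, leaving out each array, the replicate number as a block, and the mean over a gene's probe sets.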

Additional observations from a re-analysis of the deposited data

How the results depend on the processing

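Under 16 alternatives, 156 values of the 10 member probe sets were recomputed, and 0 passed an adjusted p of 0.05 (limma, lowest 0.426). At an unadjusted p under 0.05 stood Hspa8 with array weights (a difference of 0.72) and the second Hspd1 probe set without BDL replicate 3. The direction was the same throughout for 2 probe sets, Hspa8 and the second Hspd1. With array weights Hspa1b was at 0.34, Dnajb1 at 0.53, Hsph1 at 0.54 and Hspb1 at 0.010, 8 member genes were higher in BDL, and 1023 probe sets had an unadjusted p under 0.05. Quantile normalization gave Hspa9 0.00010. Leaving out 1 array gave -1.20 to 0.12 for Hspa1b, -1.13 to 0.36 for Dnajb1, -0.97 to 0.24 for Hsph1, -0.44 to 0.32 for Hspb1, -0.17 to 0.078 for Hspa9 (0.076 without sham replicate 2), -0.0012 to 0.21 for Hspe1, 0.082 to 0.62 for Hsp90aa1 and 0.15 to 0.70 for Hspd1, with 4 to 8 member genes higher and 308 to 1176 probe sets at an unadjusted p under 0.05. The mean over probe sets gave Hspd1 -0.14. No filter gave 3 probe sets past the adjusted threshold, none a member, and the stricter filter 354 at an unadjusted p under 0.05. Without the 2 arrays farthest from the median, r of Hsph1 and Dnajb1 was 0.56, an alternative chosen after seeing the data, as were the marker sums without 1 gene. The cause of these shifts was not tested, except that the stricter filter tests fewer probe sets. The replicate numbers 1 and 3 occur in both groups, and deviations from group means correlated at 0.21 and 0.25 for these pairs, too few to show pairing. With the replicate block, 2 member genes were higher, Hspe1 was at -0.078, Hsp90aa1 at -0.023 and Hspd1 at 0.0081.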

Other observations

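Hspa4, an HSP110-family relative of Hsph1, had 5 tested probe sets that disagreed, picked here after their values were seen. The brightest read 2889, 670.8 and 2713 in BDL mice 1, 12 and 3 and 4350, 1214 and 3892 in sham mice 1, 2 and 3, with a difference of -0.66 (SE 0.67). It was lowest in BDL mouse 12 and sham mouse 2. The other 4 probe sets differed by 0.31 to 0.75, and 2 of them had all BDL values above all sham values. The brighter of these read 1923, 2238 and 1460.5 in the BDL mice and 1286.5, 958.9 and 1073 in the sham mice (difference 0.75, SE 0.30). Which transcripts the disagreeing probe sets report was not tested.

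Bag3, the HSF1 target that links HSP70 to Hspb8 and picked here after its values were seen, also differed between its 2 probe sets. The one with the highest mean signal differed by 0.26 (SE 0.31) and the other by 1.24 (SE 0.44), at 2332, 1990 and 3413 in BDL mice 1, 12 and 3 and 773.6, 775.6 and 1999 in sham mice 1, 2 and 3. The groups overlapped for both. Dnajb2, a J-domain protein chosen after its values were seen, read 1510.5, 368.6 and 1729 in BDL mice 1, 12 and 3. It read 1408, 543 and 1764 in sham mice 1, 2 and 3, so BDL mouse 12 and sham mouse 2 were lowest. Hspa4 and Dnajb2 were picked with their values known, so this order of mice is a description only. How many of all probe sets have it was not counted.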
